A study of Tribolium castaneum with 2 samples.

Results

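The 6 genes described here, from *T. castaneum*, the red flour beetle, are named for proteins that carry glucose into the cell, start and end its breakdown, and dispose of its products. They were taken by identifier as the genes that the study names glucose transporter member 1 (GLUT1), hexokinase, enolase, pyruvate kinase, L-lactate dehydrogenase (LDH) and glycerol-3-phosphate dehydrogenase (GPDH), 6 of 17070 genes in the files. Together with the transcripts assembled over their exons they comprised 9 of 24494 transcripts in the hypoxia library and 13 of 24745 in the normoxia library. The study compared wild type last-instar larvae, 20 days from oviposition, after 12 h of hypoxia/hypercapnia with larvae after 12 h of normoxia. For hypoxia, 20 larvae with flour were sealed in a bottle supplied with 2% O2, 18% CO2 and 80% N2, and for normoxia 20 larvae were kept in a bottle open to air through a cotton plug. Poly(A) RNA of each condition was sequenced as 1 pooled library, and the number of larvae in a library is not given in the sources used here. The sample labels carry only the names TC1 and TC2 for the libraries, and a legend in the supplement of the study names TC2 as hypoxia and TC1 as normoxia.

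Glycolysis splits glucose into pyruvate and yields ATP without oxygen, but it consumes NAD+ on the way. With oxygen, mitochondria oxidise pyruvate and recover the NAD+. Without it, cells recover NAD+ in the cytosol, by reducing pyruvate to lactate or, in many insect tissues, by reducing dihydroxyacetone phosphate to glycerol 3-phosphate.

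The values are FPKM, fragment numbers scaled to transcript length and library size, with the confidence interval that Cufflinks gives beside each. The FPKM of all transcripts of a gene were added up, and the ratio of a gene is the log2 of hypoxia over normoxia after 0.1 FPKM was added to both. A gene is called higher or lower where the values differed at least 1.5-fold and the intervals did not overlap. Each condition had 1 library, so no difference was tested and none has a replicate check. All ranges in parentheses reflect how fragments were counted and divided among transcripts, and not the spread between larvae. The ends of assembled transcripts are estimates of the assembly. A start below is therefore the first base of a listed transcript, and no start of transcription was mapped. The files hold FPKM and no read counts, and the widths of the intervals correspond to about 7830000 fragments in hypoxia and 6960000 in normoxia. The effect of low oxygen cannot be told apart from that of high CO2, of the sealed bottle or of the arrest of feeding and movement that the study observed in the gas mixture. In RNA of whole larvae, fewer cells of a type and less RNA per cell cannot be told apart either.

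All 6 genes passed the filter of a mean of at least 1 FPKM. Of them 4 were called higher under hypoxia (GLUT1, hexokinase, enolase and LDH) and 2 lower (GPDH and pyruvate kinase). Over the 9731 genes above the filter, 7.54% were called higher and 12.1% lower. The median log2 ratio was 0.78 over the 6 genes and -0.10 over all 9731. When the ratios were centred on that median of all genes, which adds 0.10 to each, 913 genes were called higher and 962 lower in place of 734 and 1173, and all 6 genes kept their call. The summed level of the 6 genes was 1303 FPKM in hypoxia and 787 FPKM in normoxia, or 0.103% and 0.0586% of all FPKM in the library. The study chose these genes on the same libraries, so the choice was not independent of their values.

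**Figure D1:**
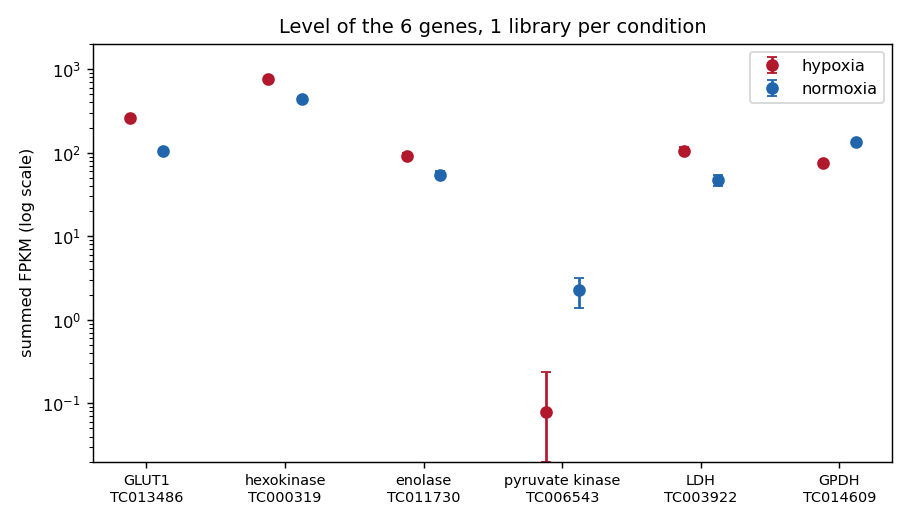
Summed FPKM (log scale) of the 6 genes in the hypoxia library (red) and the normoxia library (blue). Bars are the deposited intervals, combined as root sums of squares where a gene has several transcripts. The lower bound of pyruvate kinase in hypoxia is 0 and runs off the axis. Hypoxia lies above normoxia in GLUT1, hexokinase, enolase and LDH and below it in pyruvate kinase and GPDH, and no pair of intervals overlaps.

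GLUT1 (TC013486; ChLG5, 10817958 to 10819804, minus strand, 5 exons) belongs to the family of membrane carriers that let glucose into cells down its gradient. It had 260 FPKM (246 to 275) in hypoxia, against 104 FPKM (96.1 to 112) in normoxia. The hypoxia value was 2.51-fold higher, a log2 ratio of 1.32 (1.19 to 1.46), and 420 of the 9731 genes had a larger one. By level it stood at place 653 among these genes in hypoxia and at place 1529 in normoxia.

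In hypoxia, all of its FPKM was listed in the reference transcript. In normoxia, the reference transcript held 77.1 FPKM, or 74.2% (71.2 to 77.2%) of the gene. The rest lay in 2 assembled transcripts that leave out the first exon of the reference and start from exons upstream of it. One of them, at 13.7 FPKM, begins 2187 bases upstream with an exon of 137 bases (10821855 to 10821991). The other, at 13.1 FPKM, begins 5558 bases upstream with an exon of 580 bases (10824783 to 10825362) that overlaps TC013485, a reference gene listed at 0 FPKM in both libraries. Both run 439 bases past the end of the reference transcript, whose 1500 bases are a multiple of 3, like the reference lengths of the other genes, so that these are read as coding lengths without UTRs. With only the reference transcript, GLUT1 had a log2 ratio of 1.75, and with every transcript weighted by its length one of 1.16.

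The upstream starts of GLUT1 in normoxia cannot be set against an absence in hypoxia. In neither library did any assembled transcript listed beside another one lie below 10% of the highest FPKM of its locus, with lowest values of 10.01% in hypoxia and 10.07% in normoxia. For GLUT1 in hypoxia that limit was 26.04 FPKM. Transcripts at the 13.1 and 13.7 FPKM of normoxia lie below it.

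Hexokinase (TC000319; ChLG2, 16224604 to 16230646, minus strand, 8 exons) phosphorylates glucose in the first step of glycolysis, which keeps the sugar in the cell. It had 769 FPKM (736 to 803) in hypoxia, against 443 FPKM (422 to 464) in normoxia. The hypoxia value was 1.74-fold higher, a log2 ratio of 0.80 (0.70 to 0.89), and 783 genes had a larger one. It was the most abundant of the 6 genes in both libraries, at place 289 in hypoxia and place 423 in normoxia among all genes.

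Most of its FPKM belonged to an assembled transcript whose first listed exon lies inside the gene and not at the start of the reference. This inner first exon ended at the same splice donor in both libraries, with 68 bases in hypoxia (16226909 to 16226976) and 90 bases in normoxia (16226909 to 16226998), and began 3670 and 3648 bases downstream of the reference start. An intron of 375 bases (16226534 to 16226908) joins it to the third exon of the reference in both libraries. The transcripts with this exon held 656 FPKM (625 to 688) in hypoxia, against 313 FPKM (295 to 331) in normoxia, a log2 ratio of 1.07 (0.96 to 1.18). Their share of the gene was 85.3% (84.1 to 86.6%) in hypoxia and 70.6% (68.6 to 72.7%) in normoxia, so the intervals of the shares did not overlap. The normoxia sum includes a further start at 53.9 FPKM, below the limit of 65.6 FPKM for listing this locus in hypoxia. Part of the difference in share and in ratio therefore cannot be told apart from that limit. They keep 1323 of the 1434 coding bases of the reference, without its first exons.

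The reference start of hexokinase took a minor part in both libraries. It held 113 FPKM (103 to 123) in hypoxia, against 76.1 FPKM (68.4 to 83.8) in normoxia. This log2 ratio of 0.57 (0.38 to 0.76) is less than 1.5-fold. A further exon of 135 bases, 379 bases upstream of the reference start (16230891 to 16231025), was listed in normoxia only, at 53.9 FPKM or 12.2% of the gene. The limit of listing in hypoxia was 65.6 FPKM for this locus, above that value.

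**Figure D2:**
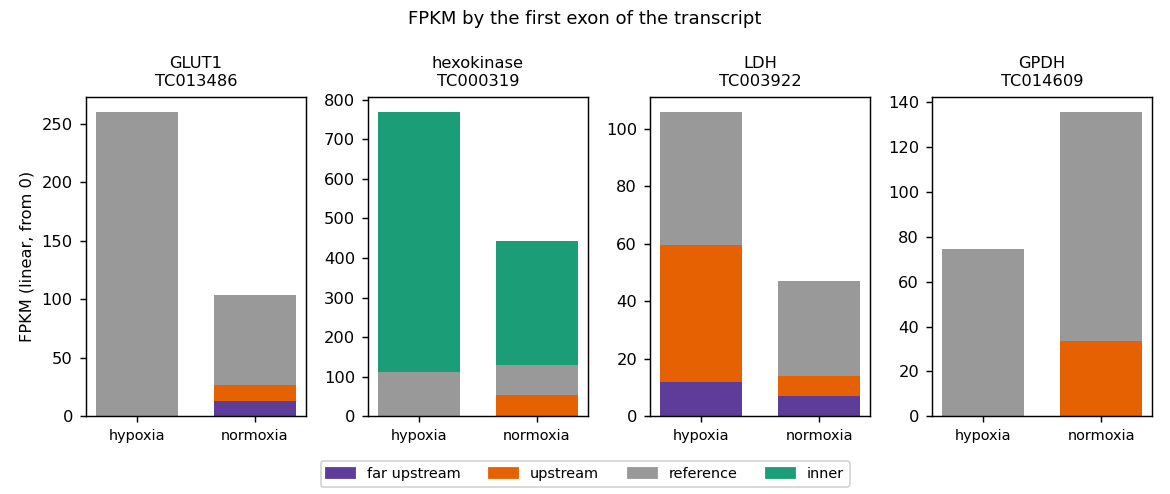
FPKM of the 4 genes with assembled transcripts, split by the first exon of the transcript (linear scale from 0, hypoxia left and normoxia right in each panel). The reference first exon is grey, exons upstream of it are orange or purple, and the exon inside the hexokinase gene is green; in hypoxia the green part amounts to 656 FPKM and the orange part of LDH to 47.6 FPKM, against 313 and 6.79 FPKM in normoxia.

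Enolase (TC011730; ChLG9, 19033307 to 19034737, minus strand, 3 exons) makes phosphoenolpyruvate, the compound from which the last step of glycolysis gains ATP. It had 92.5 FPKM (86.5 to 98.6) in hypoxia, against 54.8 FPKM (49.9 to 59.7) in normoxia. The hypoxia value was 1.69-fold higher, a log2 ratio of 0.76 (0.60 to 0.92), and 831 genes had a larger one. Neither library listed an assembled transcript for it, so its value does not depend on how fragments were divided among transcripts. The files mark its reference transcript as not fully supported by reads in either library, and its first exon has only 6 bases.

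Pyruvate kinase (TC006543; ChLG8, 13516574 to 13518181, plus strand) turns phosphoenolpyruvate into pyruvate, and the gene of this identifier has a single exon. It was near the floor of measurement, at 0.0783 FPKM (0 to 0.235) in hypoxia, against 2.28 FPKM (1.39 to 3.18) in normoxia. The widths of these intervals correspond to 1 fragment in hypoxia and 26 in normoxia. The FPKM in hypoxia was 0.0343 of that in normoxia. A 95% counting interval for this ratio was 0.00083 to 0.207. It rests on these inferred fragment numbers, with 25.8 rounded to 26 in normoxia, and not on deposited counts. The log2 ratio of -3.74 (-5.12 to -2.36) depended on the pseudocount, with -4.70 at 0.01 FPKM and -1.61 at 1 FPKM. By level it stood at place 9360 of the 9731 genes in hypoxia and at place 8692 in normoxia. Other pyruvate kinase genes were not looked up, since the sources used here pair no further identifier with that name.

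LDH (TC003922; ChLG3, 32535397 to 32545434, plus strand, 5 exons) reduces pyruvate to lactate and thereby returns NAD+ to glycolysis. It had 106 FPKM (95.7 to 116) in hypoxia, against 47.0 FPKM (40.5 to 53.5) in normoxia. The hypoxia value was 2.25-fold higher, a log2 ratio of 1.17 (0.93 to 1.41), and 484 genes had a larger one. Its place among all genes by level was 1452 in hypoxia and 2851 in normoxia.

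Both libraries listed the same 2 upstream first exons for LDH beside the reference transcript, which is listed in each library for every gene. The libraries differed in how much FPKM each held. The reference begins 2 bases inside an exon of the assembled transcripts, so its first base is not read as a separate start. Those assembled transcripts reach further exons upstream through introns of 1883 bases (32533512 to 32535394) or 3435 bases (32531960 to 32535394). Both introns were found in both libraries. The nearer upstream exon, of 53 bases in hypoxia (32533459 to 32533511) and 45 bases in normoxia (32533467 to 32533511), lies 1938 and 1930 bases before the reference start.

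The transcripts with this nearer exon held 47.6 FPKM (40.6 to 54.6) in hypoxia, against 6.79 FPKM (4.48 to 9.09) in normoxia. The log2 ratio was 2.79 (2.26 to 3.32), the highest among the first exons of hexokinase and LDH listed in both libraries. Their share of LDH was 44.9% (40.2 to 49.7%) in hypoxia and 14.4% (9.86 to 19.0%) in normoxia. These transcripts had 954 bases in hypoxia and 1336 in normoxia, so part of the ratio cannot be told apart from this difference in assembled length. With FPKM weighted by transcript length, their share was 42.5% in hypoxia and 18.4% in normoxia. The reference transcript held 46.3 FPKM (39.6 to 53.1) in hypoxia, against 33.0 FPKM (27.6 to 38.5) in normoxia, or 43.8% and 70.3% of the gene. The log2 ratio of that transcript, 0.49 (0.17 to 0.80), is less than 1.5-fold.

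The farther exon, 196 bases in hypoxia (32531764 to 32531959) and 76 bases in normoxia (32531884 to 32531959), began transcripts with 11.9 FPKM (9.01 to 14.8) in hypoxia, against 7.15 FPKM (4.38 to 9.92) in normoxia. These intervals overlap. The transcripts from this exon also splice from the last but one reference exon into an exon that the reference lacks, through an intron of 2780 bases (32540555 to 32543334) in both libraries. The ends differed as well, since the transcript from the nearer exon stopped 100 bases short of the reference end in hypoxia and ran 290 bases beyond it in normoxia. The assembled transcripts hold 834 to 999 of the 999 reference bases of LDH. The division of fragments among them and the reference transcript, and so each share, is an estimate of Cufflinks.

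**Figure D3:**
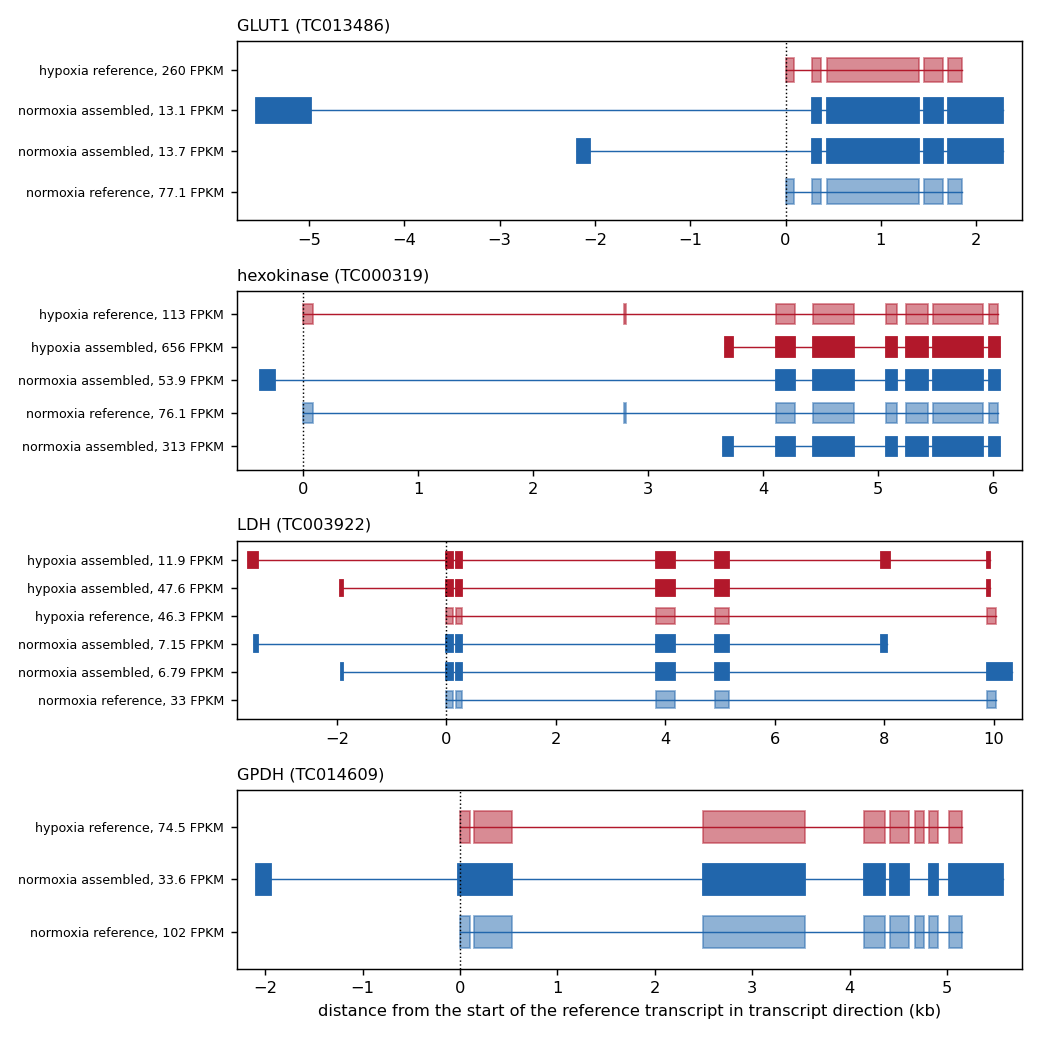
Exons (boxes) and introns (lines) of every transcript of GLUT1, hexokinase, LDH and GPDH in hypoxia (red) and normoxia (blue), with pale boxes for the reference transcript and full colour for assembled ones; the horizontal axis is the distance in kb from the reference start in the direction of transcription. Hexokinase has the inner start and LDH both upstream starts in each library, whereas the upstream starts of GLUT1 and GPDH are drawn for normoxia only.

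GPDH (TC014609; ChLG5, 15844225 to 15849374, plus strand, 8 exons) stands beside glycolysis. Under this name go a cytosolic enzyme that makes glycerol 3-phosphate with NADH and a mitochondrial one that oxidises it and passes the electrons to the respiratory chain. The study links the enzyme with mitochondrial energy supply and superoxide production, and the reference transcript of TC014609 has 2283 bases. Its protein was not examined here, so a lower value is not read as a loss of the cytosolic route. It had 74.5 FPKM (69.5 to 79.6) in hypoxia, against 136 FPKM (128 to 144) in normoxia. The log2 ratio was -0.86 (-0.99 to -0.74), or 1.82-fold higher in normoxia, and 1148 genes had a smaller one.

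Part of this difference lay in an assembled transcript of 2830 bases listed in normoxia only. It held 33.6 FPKM (30.1 to 37.1), or 24.7% of the gene, and the limit of listing for the locus in hypoxia was 7.45 FPKM, below that value. In hypoxia the upstream gene TC014608 is placed in this locus although no listed transcript joins it to GPDH. The limit alone therefore does not show that the upstream start was absent in hypoxia. The assembled transcript starts from an exon of 158 bases (15842132 to 15842289) that lies 2093 bases upstream of the reference start, and it leaves out a later exon of the reference. Its last exon runs 425 bases past the reference end and covers 136 exonic bases of TC013201, a gene on the opposite strand, with 102 FPKM in hypoxia and 94.6 FPKM in normoxia. Whether the reads keep their strand is not stated, and fragments from such an overlap cannot then be told apart. The reference transcript of GPDH alone had 74.5 FPKM in hypoxia, against 102 FPKM (95.2 to 109) in normoxia. By it the log2 ratio was -0.46 (-0.59 to -0.32), which is less than 1.5-fold, and the files mark it as not fully supported by reads in either library.

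By the reference transcript alone, GLUT1 and enolase were called higher and pyruvate kinase lower, while hexokinase, LDH and GPDH kept their direction without a call. By that measure, 15.1% of 8076 genes were called higher and 18.0% lower. At a threshold of 2-fold, GLUT1, LDH and pyruvate kinase kept their calls.

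**Figure D4:**
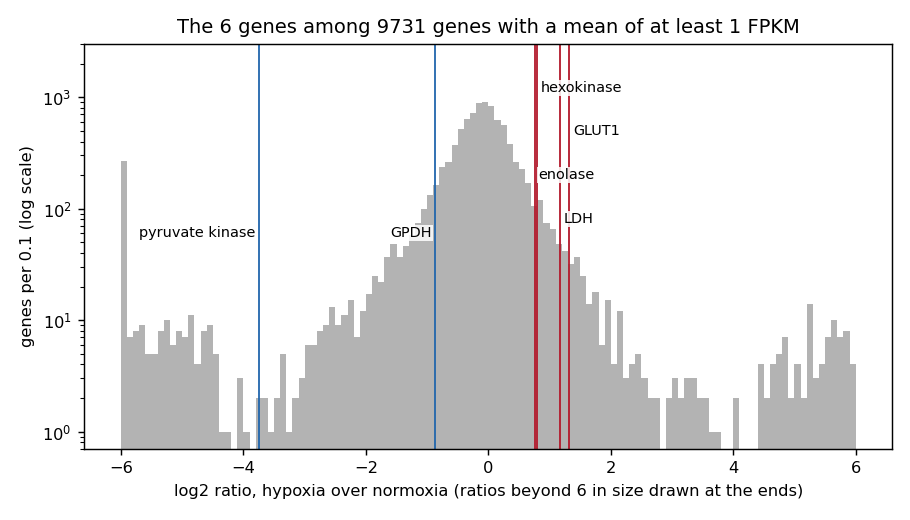
Number of genes (log scale) by log2 ratio of hypoxia over normoxia, in steps of 0.1, for the 9731 genes above the filter, with the 6 genes as vertical lines (red higher, blue lower); ratios beyond 6 in size are drawn in the end bars. Hexokinase and enolase lie at 0.80 and 0.76, LDH and GLUT1 at 1.17 and 1.32, GPDH at -0.86 and pyruvate kinase at -3.74.

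The order of levels differed between the libraries. In hypoxia it was hexokinase, GLUT1, LDH, enolase, GPDH and pyruvate kinase, from high to low, and the intervals of LDH and enolase overlapped. In normoxia it was hexokinase, GPDH, GLUT1, enolase, LDH and pyruvate kinase, with overlapping intervals for enolase and LDH. GPDH thus stood next to last in hypoxia and next to the top in normoxia. All other neighbours in both orders had separate intervals.

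Ratios of FPKM within a library need no scaling between libraries. LDH had 1.42 times the FPKM of GPDH in hypoxia, against 0.346 times in normoxia. GLUT1 had 0.338 times the FPKM of hexokinase in hypoxia and 0.234 times in normoxia. Enolase had 0.1202 times the FPKM of hexokinase in hypoxia and 0.1236 times in normoxia.

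The 4 genes called higher did not all differ by the same factor. The log2 ratio of GLUT1 exceeded that of hexokinase by 0.53 (0.37 to 0.69), and that of LDH exceeded that of enolase, with a difference of enolase minus LDH of -0.41 (-0.71 to -0.12). The ranges of GLUT1 minus LDH, 0.15 (-0.12 to 0.43), and of hexokinase minus enolase, 0.04 (-0.14 to 0.23), include 0. Across 15 pairs of the 6 genes, these were the only differences whose range included 0.

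Differences in assembly of this kind were common. Of the 9731 genes, 9.37% had an assembled transcript in hypoxia only and 10.8% in normoxia only, as GLUT1 and GPDH did. A first exon apart from those of the reference was listed in both libraries with the same splice donor for 19.4% of genes, as in hexokinase and LDH, and in normoxia only for 7.09%. Among the 3934 genes with assembled transcripts in both libraries, the median share of FPKM in the reference transcript was 25.1% in hypoxia and 23.1% in normoxia. Hexokinase lay below these medians with 14.7% in hypoxia and 17.2% in normoxia, and LDH lay above them.

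**Figure D5:**
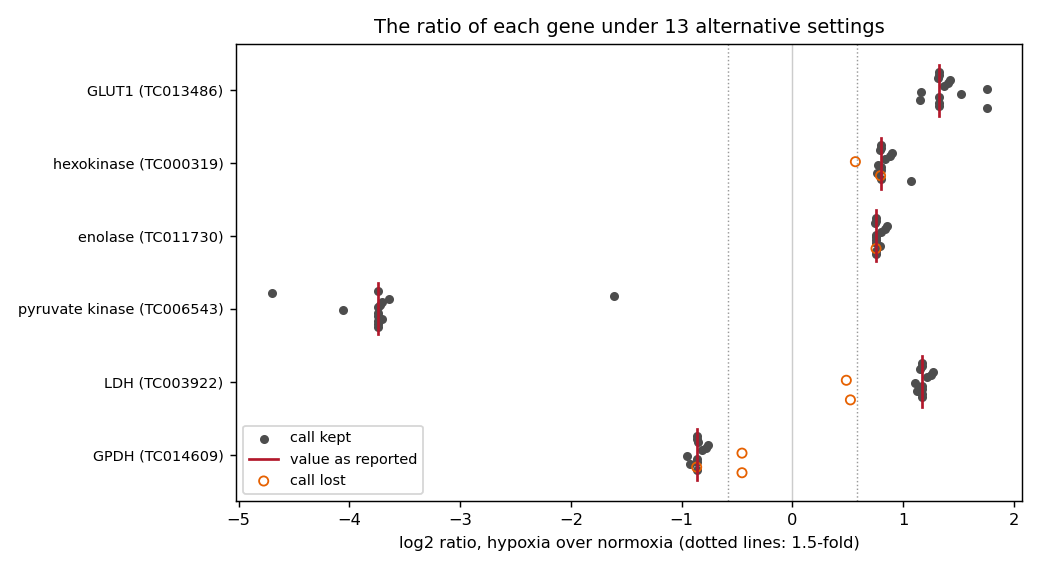
Log2 ratio of hypoxia over normoxia of each gene as reported (red line) and under 13 alternative settings (points). Dotted lines mark 1.5-fold, and open circles mark a lost call. Some points repeat the reported ratio, since their setting changes only the call or leaves the transcripts of the gene unchanged. No point crosses 0; LDH drops to 0.49 and hexokinase to 0.57 by the reference transcript alone, and GPDH lies at -0.46 by the same measure.

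A list of 8 further carbohydrate genes was compared in the same way. Of these, 7 passed the filter, above which 12.1% of all genes were called lower and 7.54% higher. Among the 7, 6 were called lower under hypoxia and 1 higher. Their median log2 ratio was -1.26, against -0.10 over all genes. They are amylases, an alpha-glucosidase and 3 further enzymes named in the study, which chose them on these libraries too, and they are not all of its carbohydrate genes. The study names the amylases, alpha-glucosidase and dihydrodiol dehydrogenase as reduced under hypoxia. Their direction was thus part of the choice, and the count and median of the list are no independent result. The genes called lower included those that free glucose from food. The alpha-amylases, which cut starch, had 1498 FPKM in hypoxia against 3634 FPKM in normoxia (TC000937), 663 against 1553 FPKM (TC000938) and 1003 against 2282 FPKM (TC000939). These alpha-amylase genes lie close together on ChLG2, between 10467808 and 10475276. Alpha-glucosidase (TC008357), which splits short sugar chains into glucose, had 6.38 FPKM in hypoxia, against 19.2 FPKM in normoxia, a log2 ratio of -1.57 (-1.94 to -1.21). Another alpha-amylase, TC000936, is listed at 0 in both libraries.

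The list holds 2 enzymes of the Krebs cycle, which takes up the carbon of pyruvate in mitochondria, and they differed in direction. Other enzymes of the cycle, and other genes for these 2 enzymes, were not analysed here. Citrate synthase (TC014588), which brings acetyl groups into the cycle, had 1.48 FPKM in hypoxia, against 5.50 FPKM in normoxia, a log2 ratio of -1.82 (-2.72 to -0.92) at low levels. Aconitate hydratase (TC010417), which acts on the citrate, had 187 FPKM in hypoxia, against 121 FPKM in normoxia, a log2 ratio of 0.63 (0.52 to 0.75). Dihydrodiol dehydrogenase (TC014229) had 12.4 FPKM in hypoxia, against 29.7 FPKM in normoxia. Phosphofructokinase, aldolase and the other enzymes between hexokinase and enolase were not analysed here, since no table used here pairs an identifier of the files with them.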

How the data were processed

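The authors removed bases under Q20, and the study states both a comparison of the reads with the BeetleBase genome and a Trinity assembly with reads mapped to its unigenes. The deposited files lie on genome positions, and the Trinity route was not used here. They deposited 1 Cufflinks assembly per library, in which every reference and assembled transcript carries an FPKM, its confidence interval, an estimated coverage and a score relative to the main transcript of its locus. The deposited score was not used. For the aligner, the Cufflinks version, the build and the annotation, nothing is given in the sources used here. Positions are printed as the files have them. The FPKM hold no counts, so no count model was fitted. Of 7423 assembled transcripts in hypoxia and 7674 in normoxia, 6730 and 6986 went to the reference gene with the most shared exonic bases on their strand, or on either strand where they have none. Interval half-widths, combined as root sums of squares, stand for 2 standard errors. The log2 ratios and the 1.5-fold threshold are on the scale of log2(FPKM + 0.1), which understates the differences of low genes. Printed folds are plain ratios of FPKM. A gene at exactly 0 FPKM is said to be listed at 0, since Cufflinks can fail to estimate a value. For transcripts alone in their locus, the half-width relative to the FPKM was read as 2 over the root of the fragments. Of those under 20 fragments, 57.7% in hypoxia and 55.9% in normoxia came out whole within 0.02, too few for a count test. The median half-width at 5 FPKM or more was 12.8% in hypoxia and 13.6% in normoxia.

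Named were the 6 genes, 8 further carbohydrate genes from the study (amylases, alpha-glucosidase, citrate synthase, aconitate hydratase and dihydrodiol dehydrogenase), and genes that share or overlap a transcript of the 6. Members and lists were chosen with earlier results of these data known. The reference gene table at hand (icTriCast1.1) matched 0 of the 6 identifiers. The scripts were tested on simulated data. Python 3.11.15, numpy 2.4.6, pandas 2.3.3, scipy 1.17.1 and matplotlib 3.10.9 were used.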

Additional observations from a re-analysis of the deposited data

How the results depend on the processing

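Each log2 ratio or its call was reassessed under 13 alternatives, 1 of them (the highest transcript in each library) chosen after seeing the data. Of 78 values, 70 kept direction and call, 8 lost the call and 0 changed sign. Not all of these values could differ from the main ratio. The threshold of 2-fold and the rule of 2 combined standard errors change only the call. Counting every transcript that shares an exonic base returned the main ratio for each gene. Enolase and pyruvate kinase have only their reference transcript, so choosing among transcripts leaves their ratios unchanged. The tally therefore counts some values that were no check of the ratio. The ranges were 1.15 to 1.75 for GLUT1, 0.57 to 1.07 for hexokinase, 0.75 to 0.86 for enolase, -4.70 to -1.61 for pyruvate kinase, 0.49 to 1.27 for LDH and -0.95 to -0.46 for GPDH. The reference transcript alone lost the calls of hexokinase (0.57), LDH (0.49) and GPDH (-0.46), and the highest transcript those of LDH (0.52) and GPDH (-0.46), both leaving out fragments given to other transcripts. A threshold of 2-fold lost those of hexokinase (0.80), enolase (0.76) and GPDH (-0.86). Over all genes, 1222 were called higher by the reference transcript alone, and 438 higher and 718 lower at 2-fold. Of 44 recomputed shares, 8 moved, all under weighting by transcript length, by at most 8.03 percentage points (the reference share of GLUT1 in normoxia, 66.2%). The other settings, every transcript that shares an exonic base and classes by the first splice donor, returned the main share each time. Shares of reference transcripts also recur among the first-exon shares, so some are counted more than once. No paired analysis was possible because each condition has 1 library, and leaving out a library leaves no comparison.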

Other observations

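Some neighbours of the 6 genes differed from them, and those of this paragraph were chosen after their values were seen, except TC013485. TC011729 (ChLG9, 19035317 to 19036665) lies 579 bases upstream of enolase on the same strand. It was near the floor of measurement, at 0.299 FPKM (0 to 0.643) in hypoxia, against 2.45 FPKM (1.41 to 3.50) in normoxia. Its log2 ratio was -2.68, while that of enolase was 0.76. TC014608 (ChLG5, 15839099 to 15841832), upstream of GPDH on the same strand, is listed at 0 in hypoxia, against 14.0 FPKM in normoxia. In hypoxia the files place it in the same locus as GPDH although no listed transcript joins them. They do the same for TC013485 and GLUT1, which are 4888 bases apart.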
